A study of Mus musculus with 40 samples.

Results

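The 9 genes Cux1, Cux2, Rorb, Foxp2, Tle4, Tbr1, Ntsr1, Syt6 and Ctgf are markers of cortical layers other than layer 5, and were followed here through mice whose ribosomes were tagged in layer 5 neurons or in GABAergic neurons. They were chosen by symbol, as markers of the upper layers, layer 4 and layer 6, but with earlier results of these data known. They are 9 of the 41388 genes in the count files. In ribosome captures (TRAP) from the layer 5 line, Syt6, Foxp2, Tle4, Cux1, Ctgf, Rorb and Tbr1 were lower than in the tissue they came from, while Ntsr1 and Cux2 did not pass the test. In captures from the GABAergic line the order was another: Rorb, Tbr1, Ctgf, Ntsr1, Cux2 and Tle4 were lower than in the tissue and Syt6 was higher. The results for Tbr1 in the layer 5 line and Tle4 in the GABAergic line did not pass under some other scalings of the libraries. Leaving out 1 replicate could also undo those for Tbr1 and Rorb in the layer 5 line.

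The neocortex is built in layers, and its excitatory neurons differ between layers in their projections and in the genes they express. Layer 4 receives input from the thalamus, neurons of the upper layers project mainly within the cortex, layer 5 sends axons to the brainstem, spinal cord and striatum, and layer 6 sends axons to the thalamus. Cux1 and Cux2 encode homeodomain transcription factors of upper layer neurons, and Rorb encodes a nuclear receptor known from layer 4. Foxp2 (a forkhead transcription factor), Tle4 (a Groucho-family corepressor), Tbr1 (a T-box transcription factor), Ntsr1 (a neurotensin receptor) and Syt6 (a synaptotagmin) are used as markers of layer 6. Ctgf (Ccn2 in newer annotations), a secreted matricellular protein, marks the deepest part of layer 6, which derives from the subplate. Several of these genes are also known from other cells: Foxp2 is found in projection neurons of the striatum, and Tbr1 and Foxp2 are not restricted to layer 6 within the cortex.

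All mice carried a Cre-dependent TRAP reporter in the Rosa26 locus, an EGFP fusion of the ribosomal protein Rpl10a, and were 21 days old. In RBP4-TRAP mice a Rbp4-Cre transgene, which is active in layer 5 pyramidal neurons, switched the reporter on. In VGAT-TRAP mice Cre was placed in Slc32a1, the gene of the vesicular GABA transporter, so that the reporter can be active in any GABAergic neuron of the forebrain and not just in the cortex. Each line had 5 replicates, each of them a pool of 2 or 3 forebrains of both sexes, and each pool gave 4 libraries: whole-cell homogenate (WCH), TRAP, a synaptoneurosome fraction (SNF), and TRAP from that fraction (SynapTRAP, ST). No group lacked the reporter or Cre, so that RNA that binds without a tag was not measured separately. Cortex is the tissue on the labels, whereas forebrains are what the protocol says was dissected.

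Spans of the genes on the mouse genome are given as in the count files, in 1-based coordinates, and their counts are over all exons, so that introns do not enter. Cux1 was at chr5:136248135-136567490 and Cux2 at chr5:121858387-122050102, both on the minus strand. Rorb was at chr19:18930605-19111196 and Tle4 at chr19:14448072-14598051, also on the minus strand. On the plus strand, Foxp2 was at chr6:14901349-15441977, Tbr1 at chr2:61802930-61814114, Ntsr1 at chr2:180499976-180544980, Syt6 at chr3:103575231-103645569 and Ctgf at chr10:24595442-24598683. The build is not named in the files. These spans were the same in GENCODE M21 (GRCm38) for 7 of the 9 genes, and differed for Cux2 and Tle4 at the end of lower coordinate. Exons of Cux1, Syt6 and Ctgf overlap those of 1 other gene each, over 394 of 20024, 505 of 5828 and 665 of 2861 exonic bases. These other genes held 43, 5 and 200 counts in all 40 libraries together, against 47799, 18338 and 9711 counts of the layer marker genes. Ambiguous reads were counted for neither gene, so the reads lost in shared exons cannot be read from these counts.

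Libraries held between 14259535 and 22037703 counts, and values are given as cpm (counts scaled to a common library size), with library sizes taken without mitochondrial, rRNA and tRNA genes. 1 count was then worth between 0.0455 and 0.112 cpm, and the lowest value of a layer marker gene in any library was 11 counts (Ntsr1 in a VGAT TRAP library). Slc32a1 was at 58.4 ± 11.6 cpm (SD, n = 5) in VGAT TRAP and at 2.88 ± 1.396 in RBP4 TRAP, and Slc17a7 (the vesicular glutamate transporter of cortical neurons) at 58.5 ± 55.0 and 552 ± 87.5 cpm. In the 10 WCH libraries, 8 striatal projection neuron genes summed to between 336 and 671 cpm and 4 thalamic genes to between 87.0 and 223 cpm, so that transcripts of genes known from both regions were present in the tissue labelled cortex. Some libraries stood apart from their group. RBP4 TRAP replicate 5 had a summed level of 6 GABAergic genes of 442 cpm (others 96.2 to 142), of 5 oligodendrocyte genes of 4702 cpm (others 341 to 830) and of 5 astrocyte genes of 690.4 cpm (others 83.1 to 186). VGAT TRAP replicate 3 had a summed level of 5 glutamatergic genes of 263 cpm (others 39.8 to 90.9), of the oligodendrocyte genes of 2162 cpm (others 374 to 1535) and of the astrocyte genes of 396 cpm (others 50.5 to 219.9). In RBP4 ST replicate 4, Slc32a1 was at 49.9 cpm (others 10.9 to 19.7), and in RBP4 ST replicate 2 the endothelial and mural genes summed to 254 cpm (others 5.56 to 45.5). In both lines replicate 3 had the highest mitochondrial share of SNF and of ST. It was 40.2% in RBP4 SNF and 41.9% in VGAT SNF (other SNF libraries 11.2% to 19.4%), and 15.8% in RBP4 ST and 18.97% in VGAT ST (other ST libraries 2.71% to 7.08%). Results are given without these libraries, or without their pool, wherever a call changed or a fold moved by over 1.5 times.

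In WCH, the starting material, per kb of exon Cux2 had the highest mean level in the RBP4 line at 34.6 cpm per kb, followed by Rorb at 19.0, Tle4 at 17.9, Tbr1 at 16.0, Syt6 at 5.60, Ctgf at 4.59, Cux1 at 4.05, Foxp2 at 3.47 and Ntsr1 at 1.86. In the VGAT line the levels were 33.9 for Cux2, 23.0 for Rorb, 19.4 for Tle4, 17.2 for Tbr1, 6.40 for Syt6, 4.91 for Ctgf, 3.87 for Foxp2, 3.76 for Cux1 and 1.49 for Ntsr1, so that Foxp2 and Cux1 changed places. The paper describes a strong 3' bias of the reads, so dividing by exon length can distort the order between genes. Undivided, Cux1 was at 81.2 cpm and Ctgf at 13.1 cpm on average in RBP4 WCH. No layer marker gene differed between the WCH of both lines in the edgeR quasi-likelihood test with Benjamini-Hochberg adjustment, with log2 differences between -0.27 (Rorb, SE 0.36) and 0.32 (Ntsr1, SE 0.35). Of all 16898 genes tested, 0.0118% passed an adjusted p of at most 0.05 in this comparison (1 higher and 1 lower, or 0.00592% each), and 246 and 180 had an unadjusted p under 0.05. By DESeq2, 3 genes were higher and 1 was lower.

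**Figure D1:**
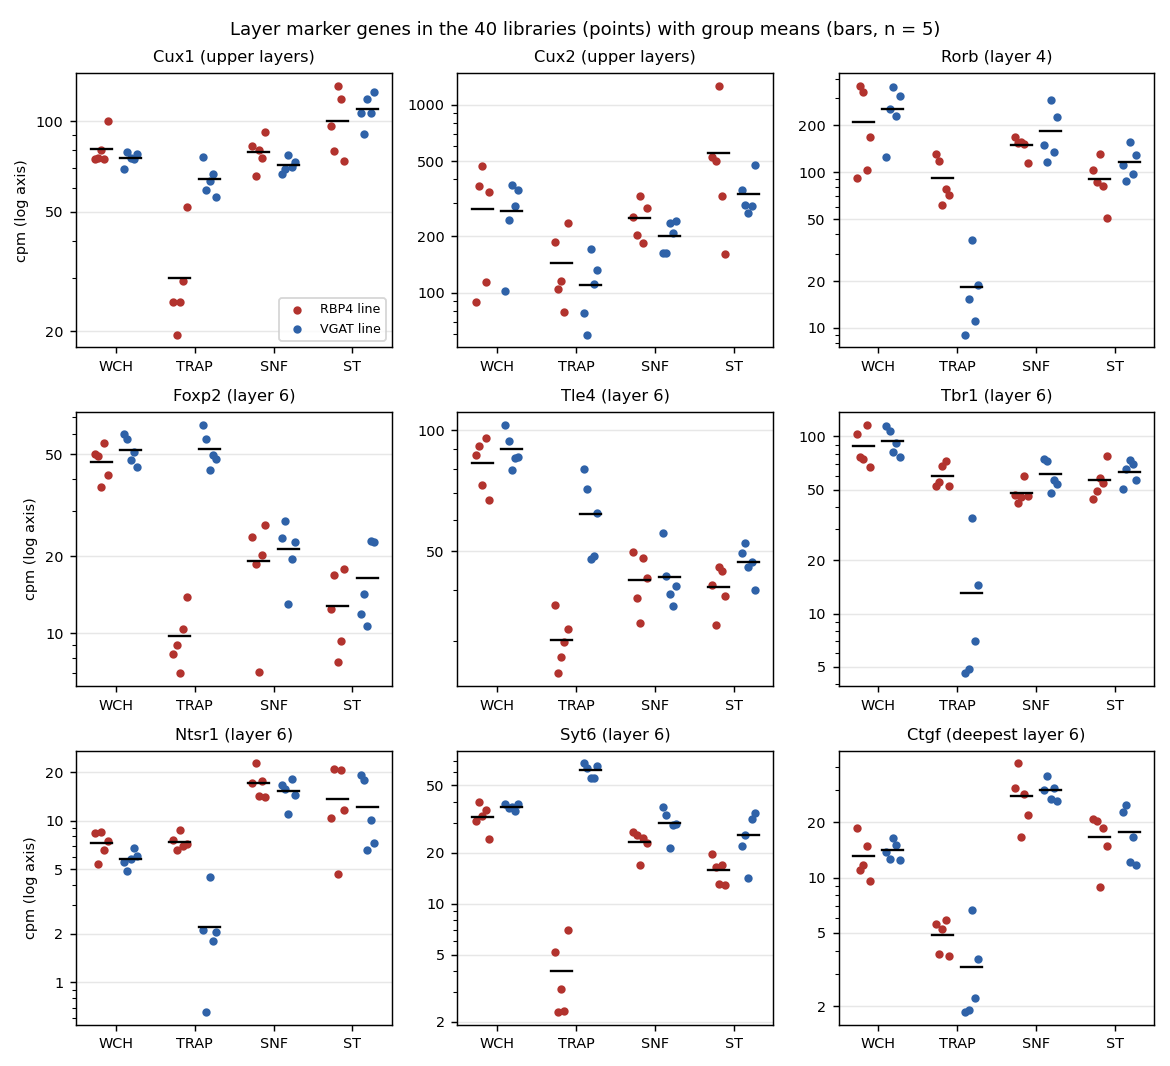
Level of each layer marker gene in cpm (log axis) in WCH, TRAP, SNF and ST of the RBP4 (red) and VGAT (blue) lines; each point is 1 library and each bar the mean of 5. In TRAP the points of both lines lie apart for Cux1, Rorb, Foxp2, Tle4, Tbr1, Ntsr1 and Syt6, while in WCH and ST they overlap for all 9 genes.

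The first comparison asked which of these transcripts were depleted when ribosomes of the layer 5 line were captured. Against WCH of the same line, 7 of the 9 genes were lower in RBP4 TRAP and 0 were higher, where 31.5% of all 17043 genes tested were lower and 8.37% higher, 39.9% in all (edgeR quasi-likelihood test, adjusted p of at most 0.05). The median log2 fold change of the 9 genes was -1.43, against -0.34 for all genes tested. In such bulk libraries, fewer cells of a type and less RNA per cell cannot be told apart. With TMM factors the median of all genes was -0.05 and 3296 genes were higher and 3815 lower, in place of 1427 and 5372.

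Of the upper layer genes, Cux1 was at 74.8, 75.8, 80.0, 75.2 and 99.9 cpm in the 5 RBP4 WCH libraries (replicates 1 to 5, as in all such lists). In RBP4 TRAP it was at 25.1, 19.5, 24.96, 29.4 and 52.0 cpm. All TRAP values lay below all WCH values, also that of replicate 5, which was the highest of the TRAP libraries. The change was -1.43 on the log2 scale (SE 0.22, edgeR adjusted p = 3.79e-05), or a 2.69-fold lower level.

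Cux2 was at 89.3, 368, 472, 114 and 342 cpm in RBP4 WCH and at 185, 104, 116, 79.4 and 234 cpm in RBP4 TRAP. The WCH libraries spread over a wide range, with replicates 1 and 4 lowest, and overlapped those of TRAP. TRAP was below WCH in 4 of 5 pools, the exception being pool 1, and the log2 change of -0.95 (SE 0.45) did not pass the test (edgeR adjusted p = 0.0964). Without RBP4 TRAP replicate 5 it was -1.19 and passed (edgeR adjusted p = 0.0376).

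For Rorb, the marker of layer 4, the WCH values were 92.5, 361, 326, 104 and 169 cpm. The TRAP values were 132, 118, 61.4, 78.2 and 71.9 cpm. Here, too, WCH replicates 1 and 4 were low and lay within the range of TRAP. The change of -1.19 (SE 0.32) passed the test (edgeR adjusted p = 0.00593), but not when pool 3 was left out (edgeR adjusted p = 0.0655).

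Of the layer 6 genes, Syt6 had the largest change of the 9 genes in this comparison. It was at 30.7, 39.8, 32.9, 35.7 and 24.2 cpm in WCH and at 5.19, 2.28, 3.11, 2.32 and 7.003 cpm in TRAP, which is 8.23-fold lower (-3.04 on the log2 scale, SE 0.27, edgeR adjusted p = 1.4e-07). Foxp2 was at 49.9, 49.3, 37.3, 55.1 and 41.6 cpm in WCH and at 8.28, 9.01, 6.95, 10.4 and 13.8 cpm in TRAP, 4.81-fold lower (log2 -2.26, SE 0.29, edgeR adjusted p = 4.64e-06). For both genes every TRAP library was below every WCH library. Within TRAP, replicate 5, which also had the highest level of GABAergic genes, had the highest value of both.

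Tle4 was at 87.1, 91.5, 73.3, 95.7 and 67.1 cpm in WCH and at 36.8, 24.9, 27.3, 29.8 and 32.1 cpm in TRAP. These groups did not overlap, and the level was 2.75-fold lower in TRAP (log2 -1.46, SE 0.16, edgeR adjusted p = 1.27e-06). Tbr1 was at 104, 76.6, 74.7, 117 and 67.1 cpm in WCH and at 52.6, 55.1, 67.9, 72.4 and 52.4 cpm in TRAP. It was lower in TRAP in 5 of 5 pools, but the groups overlapped and the change was small (-0.55, SE 0.18, edgeR adjusted p = 0.0215). It did not pass with TMM factors (log2 -0.25, edgeR adjusted p = 0.274), with DESeq2, with no genes left out, or without pool 1, 2 or 4.

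Ntsr1 was at 8.42, 5.41, 8.51, 6.55 and 7.53 cpm in WCH and at 7.63, 6.58, 8.72, 6.96 and 7.23 cpm in TRAP. The 2 groups had nearly the same mean, with TRAP above WCH in 3 of 5 pools (log2 0.03, SE 0.28, edgeR adjusted p = 0.948). Ctgf, the marker of the deepest layer, was at 18.6, 10.95, 11.7, 14.8 and 9.62 cpm in WCH and at 5.60, 3.86, 5.24, 5.87 and 3.75 cpm in TRAP. All 5 TRAP values were below all 5 WCH values (log2 -1.43, SE 0.27, edgeR adjusted p = 0.000231).

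The same capture in the GABAergic line gave another picture. Against VGAT WCH, 6 of the 9 genes were lower and 1 was higher in VGAT TRAP. Of all 16990 genes tested, 41.8% were lower and 21.0% higher, or 62.8% in all, so that the count in itself sets these genes little apart. The median log2 fold change was -1.30 for the 9 genes and -0.31 for all genes. With TMM factors the median of all genes was -0.06 and 4987 genes were higher and 5530 lower, in place of 3561 and 7106.

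Rorb and Tbr1 were the lowest relative to WCH. Rorb was at 126, 254, 353, 231 and 309 cpm in VGAT WCH and at 9.05, 15.4, 36.7, 11.1 and 18.9 cpm in VGAT TRAP, 14.0-fold lower (log2 -3.80, SE 0.36, edgeR adjusted p = 2.26e-08). Tbr1 was at 114, 107, 81.6, 92.1 and 76.7 cpm in WCH and at 4.59, 4.87, 34.8, 6.98 and 14.5 cpm in TRAP, 7.18-fold lower (log2 -2.84, SE 0.39, edgeR adjusted p = 2.26e-06). The highest TRAP value of both genes was that of replicate 3, the library with the highest glutamatergic and glial sums, and the groups did not overlap even so. Without this library the changes were -4.22 for Rorb and -3.59 for Tbr1.

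Ctgf and Ntsr1 were also lower. Ctgf was at 13.7, 12.6, 16.5, 15.0 and 12.5 cpm in WCH and at 1.85, 1.90, 6.70, 2.22 and 3.60 cpm in TRAP (log2 -2.11, SE 0.29, edgeR adjusted p = 2.18e-06). Ntsr1 was at 5.55, 4.91, 5.83, 6.78 and 6.04 cpm in WCH and at 2.10, 0.654, 4.46, 1.80 and 2.04 cpm in TRAP (log2 -1.401, SE 0.34, edgeR adjusted p = 0.0014). Neither gene had a TRAP library within the range of WCH, and replicate 3 was again the highest of TRAP.

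Cux2 was at 102, 245, 374, 288 and 349.9 cpm in VGAT WCH and at 77.7, 59.9, 170.0, 111 and 133 cpm in VGAT TRAP. It was lower in TRAP in 5 of 5 pools, with an overlap through the low WCH value of pool 1 (log2 -1.30, SE 0.29, edgeR adjusted p = 0.000528). Tle4 was at 103, 94.4, 79.9, 85.6 and 86.1 cpm in WCH and at 80.2, 71.4, 47.8, 48.6 and 62.5 cpm in TRAP, and likewise lower in 5 of 5 pools (log2 -0.53, SE 0.14, edgeR adjusted p = 0.00294). The Tle4 call was lost with TMM factors (log2 -0.28, edgeR adjusted p = 0.128) and with DESeq2.

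3 genes were not lower. Syt6 was at 38.8, 36.6, 37.2, 35.1 and 38.9 cpm in WCH and at 67.3, 63.2, 55.4, 55.4 and 65.4 cpm in TRAP, which was higher in 5 of 5 pools with no overlap (log2 0.72, SE 0.17, edgeR adjusted p = 0.00125). Foxp2 was at 60.1, 57.4, 47.5, 51.1 and 44.5 cpm in WCH and at 65.3, 57.1, 43.4, 49.5 and 47.7 cpm in TRAP, with a log2 change of 0.01 (SE 0.20). Cux1 was at 69.3, 78.9, 75.7, 74.8 and 77.8 cpm in WCH and at 75.9, 59.0, 63.1, 66.7 and 55.8 cpm in TRAP. Its log2 change of -0.23 (SE 0.10) did not pass the test (edgeR adjusted p = 0.0579), became 0.02 with TMM factors, and passed without pool 1 (edgeR adjusted p = 0.0226) and without the SNF and ST libraries of replicate 3 (0.0433), which enter this comparison through the estimate of the spread only.

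**Figure D2:**
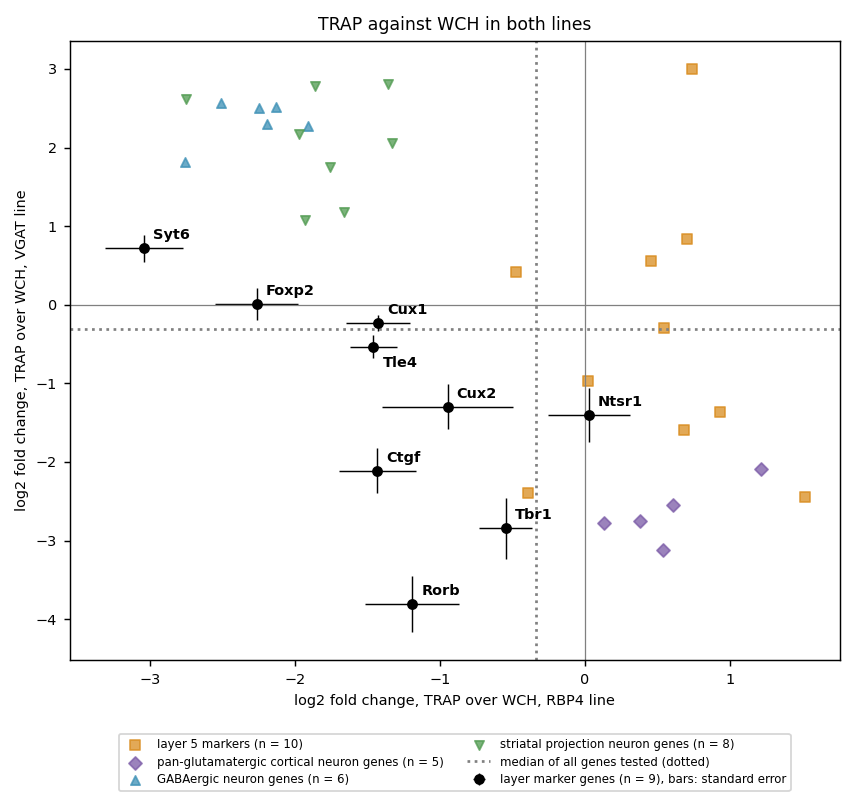
log2 fold change of TRAP over WCH in the RBP4 line (horizontal) and in the VGAT line (vertical); black points with standard errors are the 9 layer marker genes, coloured symbols are genes of 4 other lists, and dotted lines mark the median of all genes tested. Syt6 lies at -3.04 and 0.72, nearest of the layer marker genes to the GABAergic and striatal genes, whereas Tbr1 (-0.55 and -2.84) and Ntsr1 (0.03 and -1.401) lie towards the glutamatergic genes.

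The capture of both lines was then compared directly. Between RBP4 TRAP and VGAT TRAP, 7 of the 9 genes differed, 3 higher in RBP4 and 4 higher in VGAT, where 28.0% of all 16898 genes tested passed the threshold (12.9% higher in RBP4 and 15.1% higher in VGAT). For none of these 7 genes did the libraries of both lines overlap, but the share of all genes without overlap was not counted. The VGAT and RBP4 TRAP values are those given above with each WCH comparison.

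Higher in the layer 5 line were Rorb with 92.2 ± 30.8 against 18.2 ± 11.02 cpm (SD, n = 5; log2 2.34, SE 0.38, edgeR adjusted p = 1.42e-05), and Tbr1 with 60.1 ± 9.41 against 13.1 ± 12.7 cpm (log2 2.19, SE 0.34, edgeR adjusted p = 9.66e-06). Ntsr1 was at 7.42 ± 0.818 against 2.21 ± 1.39 cpm (log2 1.75, SE 0.37, edgeR adjusted p = 0.000445). Higher in the GABAergic line was Syt6, with 61.4 ± 5.61 against 3.98 ± 2.06 cpm, a 15.5-fold difference (log2 of RBP4 over VGAT -3.95, SE 0.26, edgeR adjusted p = 3.93e-13). Foxp2 was at 52.6 ± 8.65 in VGAT against 9.70 ± 2.63 cpm in RBP4, 5.42-fold higher (edgeR adjusted p = 1.42e-09). Cux1 was 2.12-fold and Tle4 2.06-fold higher in VGAT TRAP (edgeR adjusted p = 3.91e-05 and 1.84e-06).

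Cux2 and Ctgf did not pass in this comparison. Their log2 differences of RBP4 over VGAT TRAP were 0.38 (SE 0.44, edgeR adjusted p = 0.562) and 0.58 (SE 0.30, edgeR adjusted p = 0.148), and their libraries overlapped. Ctgf passed when VGAT pool 3 was left out (edgeR adjusted p = 0.00609). Without RBP4 TRAP replicate 5 and VGAT TRAP replicate 3, the 7 differences were larger and Ctgf was higher in RBP4 (log2 1.09, edgeR adjusted p = 0.00455). Tbr1 was then 2.99 apart on the log2 scale in place of 2.19.

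Whether the change from WCH to TRAP differed between the lines was tested in 1 fit of all 40 libraries, added after the data had been seen. The change differed for 7 of the 9 genes, where 12.6% of all 17728 genes tested passed (5.61% in favour of the RBP4 line and 6.95% in favour of the VGAT line). The differences (RBP4 less VGAT change, log2) were 2.61 for Rorb, 2.30 for Tbr1 and 1.43 for Ntsr1 (SE 0.49, 0.43 and 0.46). They were -3.76 for Syt6, -2.28 for Foxp2, -1.19 for Cux1 and -0.93 for Tle4 (SE 0.32, 0.36, 0.24 and 0.21). For Cux2 the difference was 0.35 (SE 0.56) and for Ctgf 0.68 (SE 0.39), which did not pass. Without the 2 TRAP libraries that stood apart, that of Ctgf was 1.19 and passed (edgeR adjusted p = 0.0241), and that of Tbr1 was 3.10.

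Other markers of the same layers give the setting of these values. In RBP4 TRAP against WCH, 5 of 8 other upper layer and layer 4 genes were lower and 0 higher (median log2 -1.03), among them Stard8 (-1.36, SE 0.18) and Pou3f3 (-1.44, SE 0.25), a POU-domain transcription factor. Of 8 other layer 6 and subplate genes, 6 were lower and 0 higher (median -1.16), with Hs3st4, a heparan sulfate sulfotransferase, at -1.32 (SE 0.17) and Nxph4, a neurexophilin, at -1.55 (SE 0.34). Of 10 layer 5 genes, 5 were higher and 0 lower (median 0.61). Fezf2, the transcription factor of subcerebral projection neurons, was at 1.52 (SE 0.32) and Etv1 at 0.68 (SE 0.18). All changes named here and in the next paragraphs on such lists passed the test (edgeR adjusted p of at most 0.05). Of 5 glutamatergic genes 2 were higher and 0 lower, with Emx1 at 1.21 (SE 0.30) and Slc17a7 at 0.61 (SE 0.21). The medians of both layer lists stood below that of all genes tested (-0.34), as did those of 6 GABAergic genes (6 lower, median -2.22, Dlx1 -2.51 and Gad2 -2.76) and of 8 striatal genes (8 lower, median -1.81, Adora2a -2.75).

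In VGAT TRAP against WCH, 6 of the 8 other upper layer and layer 4 genes were lower and 1 higher (median -1.02), with Stard8 at -2.81 (SE 0.25) and Pou3f2 at -2.45 (SE 0.17). Of the 8 other layer 6 and subplate genes, 6 were lower and 2 higher (median -1.16); Hs3st4 was at -1.06 (SE 0.12) and Moxd1, a monooxygenase-like protein, at 1.70 (SE 0.24). All 8 striatal genes were higher (median 2.11, Ppp1r1b 2.81 and Rarb 2.06), with a summed level of 1840 to 2956 cpm in VGAT TRAP against 407 to 640 cpm in VGAT WCH and 103 to 224 cpm in RBP4 TRAP. The 6 GABAergic genes were also higher (median 2.396, Dlx1 2.57 and Lhx6 2.52), summing to 3115 to 5341 cpm in VGAT TRAP and to 803 to 1221 cpm in VGAT WCH, and no gene of either list was at 0 in all 5 libraries of a group. What part striatal or GABAergic cells had in the levels of Syt6, Foxp2, Tle4 and Cux1 in VGAT TRAP was not tested.

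All 5 glutamatergic genes were lower in VGAT TRAP (median -2.75, Neurod6 -3.12 and Neurod2 -2.75), and of the layer 5 genes 5 were lower and 4 higher, with Etv1 at -1.60 (SE 0.13) and Rbp4 at 3.001 (SE 0.25). Between the TRAP libraries, 3 of the 8 other upper layer and layer 4 genes were higher in RBP4 and 2 in VGAT, with Pou3f2 at 1.43 (SE 0.20) and Stard8 at 1.398 (SE 0.22). Of the other layer 6 and subplate genes 2 were higher in each line, and the differences of Moxd1 (-3.41, SE 0.35) and Cplx3 (-1.45, SE 0.18), a complexin of the subplate, favoured VGAT. Of the layer 5 genes 6 were higher in RBP4 and 2 in VGAT, with Etv1 at 2.19 (SE 0.16) and Fezf2 at 4.03 (SE 0.38). The glutamatergic genes were higher in RBP4 TRAP (5 of 5; Slc17a7 3.24, Neurod6 3.43), and the GABAergic (6 of 6; Dlx1 -5.25, Lhx6 -4.92) and striatal genes (8 of 8; Rarb -3.58) in VGAT TRAP.

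Genes of other cells were mostly lower after the capture in both lines. In the RBP4 line 3 of 4 thalamic genes (Tcf7l2 -3.04, Lef1 -2.81), 4 of 5 astrocyte genes (Aqp4 -3.32, Gja1 -3.21), 4 of 5 oligodendrocyte genes (Mog -2.93), 4 of 4 microglia genes (P2ry12 -3.71, Cx3cr1 -3.68) and 3 of 5 endothelial and mural genes (Cldn5 -2.57, Acta2 -2.56) were lower. In the VGAT line these were 3 of 4 thalamic (Tcf7l2 -2.41, Slc17a6 -3.52), 5 of 5 astrocyte (Gja1 -3.43, Aldh1l1 -2.22), 5 of 5 oligodendrocyte (Cnp -2.46, Mog -2.95), 4 of 4 microglia (P2ry12 -2.22, Cx3cr1 -2.71) and 4 of 5 endothelial and mural genes (Pecam1 -3.13, Acta2 -2.76). None of these lists had a gene that was higher in TRAP. Between the TRAP libraries, Slc17a6 (2.96), Aldh1l1 (2.36) and Pecam1 (2.397) were higher in RBP4, and Prkcd (-1.64), P2ry12 (-1.999) and Cx3cr1 (-1.399) in VGAT, while 0 of 5 oligodendrocyte genes passed.

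The synaptoneurosome fraction is made to enrich synaptic terminals together with nearby processes. Against WCH, 2 of the 9 genes were higher and 3 lower in RBP4 SNF, and 2 were higher and 2 lower in VGAT SNF. This is near the background, since 49.6% of all genes tested passed in the RBP4 line (13.4% higher, 36.1% lower) and 64.5% in the VGAT line (19.3% higher, 45.2% lower). The median log2 change of all genes was -0.50 in the RBP4 and -0.52 in the VGAT line. With TMM factors both were -0.17, with 3284 genes higher and 3048 lower in the RBP4 line in place of 2286 and 6161, and 4187 and 4747 in the VGAT line in place of 3283 and 7680. Mitochondrial genes held 11.2% to 41.9% of the counts in SNF and 2.01% to 10.004% in WCH. With these genes and those of rRNA and tRNA kept in the library sizes, 7 of the 9 genes were lower in VGAT SNF in place of 2. The background shifted too, with 9134 of all genes lower and 2371 higher there and a median log2 change of -0.80.

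Ntsr1, the receptor, and Ctgf, the secreted protein, were the genes that were higher in SNF. Ntsr1 was at 17.1, 22.6, 14.3, 17.7 and 14.0 cpm in RBP4 SNF and at 16.7, 15.7, 10.9, 18.1 and 14.5 cpm in VGAT SNF, above every WCH library of its line (log2 1.24, SE 0.28, and 1.39, SE 0.32; edgeR adjusted p = 0.00144 and 0.000747). Ctgf was at 30.7, 41.7, 16.6, 28.4 and 21.8 cpm in RBP4 SNF and at 29.8, 35.7, 26.6, 30.5 and 26.2 cpm in VGAT SNF. It was higher than WCH in 5 of 5 pools of each line (log2 1.09, SE 0.26, and 1.08, SE 0.26; edgeR adjusted p = 0.00182 and 0.00113), with an overlap in the RBP4 line. Astrocyte genes were higher in SNF as well, 5 of 5 in each line, with sums of 2520 to 6581 cpm in RBP4 SNF against 962 to 2053 in RBP4 WCH, and 2249 to 6265 against 735 to 1565 in the VGAT line. Of the 4 microglia genes 3 were higher in the RBP4 and 4 in the VGAT line, and of the 5 oligodendrocyte genes 4 in each. Of the 5 glutamatergic genes 1 was higher and 4 lower in RBP4 SNF, and 1 higher and 3 lower in VGAT SNF. Of the 6 GABAergic genes 1 was higher in each line, with 4 lower in the RBP4 and 5 in the VGAT line. Mean Slc17a7 went from 362 cpm in WCH to 784 in SNF (RBP4) and from 342 to 867 (VGAT). Mean Slc32a1 went from 13.7 to 33.7 and from 10.3 to 27.8 cpm. The part of glial or neuronal RNA in the values of Ntsr1 and Ctgf was not tested.

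The transcription factors and the corepressor were lower or did not pass. Foxp2 was at 23.7, 18.6, 7.04, 20.3 and 26.4 cpm in RBP4 SNF and at 23.6, 27.5, 13.0, 19.4 and 22.7 cpm in VGAT SNF, below every WCH library of its line (log2 -1.28, SE 0.28, and -1.29, SE 0.21; edgeR adjusted p = 0.000979 and 1.55e-05). Tle4 was at 49.7, 38.2, 33.1, 48.1 and 43.1 cpm in RBP4 SNF and at 55.7, 43.4, 39.1, 36.5 and 41.1 cpm in VGAT SNF, likewise below every WCH library of its line (log2 -0.97 and -1.06, edgeR adjusted p = 0.000168 and 2.67e-06). Tbr1 was lower in the RBP4 line at 46.4, 42.3, 45.8, 59.8 and 46.0 cpm (log2 -0.87, SE 0.18, edgeR adjusted p = 0.000792), but not with DESeq2. In VGAT SNF, at 74.3, 72.2, 47.9, 56.8 and 54.1 cpm, it did not overlap with WCH and did not pass (log2 -0.63, SE 0.36, edgeR adjusted p = 0.13). It passed there without pool 3 (edgeR adjusted p = 0.0423), and also without VGAT TRAP replicate 3 alone (0.0189), a library that enters this comparison through the estimate of the spread only.

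Cux1, Cux2, Rorb and Syt6 did not pass in either line, with log2 changes between -0.49 (Rorb) and -0.03 (Cux1) in the RBP4 line and between -0.47 (Rorb) and -0.07 (Cux1) in the VGAT line. Syt6 was lower in RBP4 SNF without pool 5 (edgeR adjusted p = 0.0386). The direction of Cux1 in VGAT SNF turned with the scaling. It was higher with TMM factors (log2 0.28, edgeR adjusted p = 0.0419) and with DESeq2 (log2 0.38, DESeq2 adjusted p = 0.00164), and lower with mitochondrial, rRNA and tRNA genes kept (log2 -0.36, edgeR adjusted p = 0.0115). With the pool as a block, Rorb was lower in VGAT SNF (log2 -0.49, edgeR adjusted p = 0.0241). Tested over all 40 libraries, the change from WCH to SNF differed between the lines for 0 of the 9 genes and 0 of 17728 genes by edgeR's quasi-likelihood test (0.0%), and 62 and 32 genes had an unadjusted p under 0.05 in favour of RBP4 and VGAT; the same fit with TMM factors and with the block also gave 0 of the 9.

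**Figure D3:**
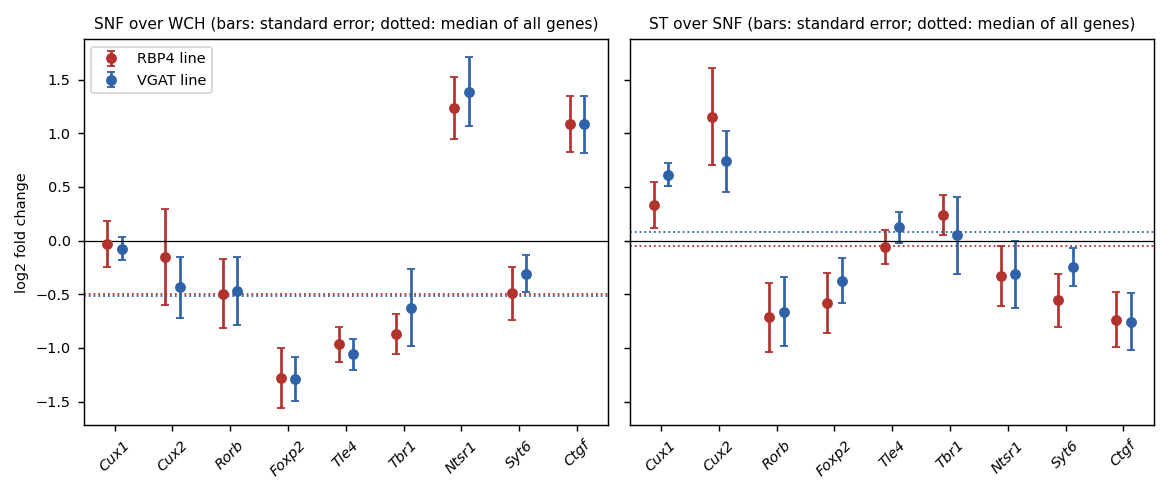
log2 fold change with standard error of each layer marker gene in SNF over WCH (left) and in ST over SNF (right), in the RBP4 (red) and VGAT (blue) lines; dotted lines are the medians of all genes tested. In SNF, Ntsr1 (1.24 and 1.39) and Ctgf (1.09 and 1.08) lie above 0 and Foxp2 (-1.28 and -1.29) and Tle4 (-0.97 and -1.06) below it in both lines, whereas in ST most genes lie within 1 log2 unit of 0.

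The capture of tagged ribosomes from the synaptoneurosomes (ST against SNF) changed few of these genes. In the RBP4 line 0 of the 9 passed (11.1% of all genes tested did, 5.64% higher and 5.46% lower) by edgeR's quasi-likelihood test. An unadjusted p under 0.05 was found for 5 of the 9, and for 1992 higher and 2390 lower of all 17043 genes tested. By the likelihood ratio test and by DESeq2 1 of the 9 was lower. In the VGAT line 1 was higher and 1 lower (27.5% of all genes tested passed, 16.3% higher and 11.2% lower). With TMM factors the split of all calls in the VGAT line was 1987 higher and 2480 lower in place of 2771 and 1905. With mitochondrial, rRNA and tRNA genes kept it was 4726 and 917, and 1757 and 317 in the RBP4 line in place of 962 and 931.

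Cux1 was the gene that was higher in VGAT ST. It was at 66.8, 69.6, 77.5, 70.4 and 73.3 cpm in VGAT SNF and at 106, 90.7, 119, 107 and 125 cpm in VGAT ST, with no overlap (log2 0.61, SE 0.11, edgeR adjusted p = 0.000116). In RBP4 ST it was at 96.1, 79.4, 131, 119 and 73.9 cpm (log2 0.33, SE 0.22, edgeR adjusted p = 0.353). Cux2 was at 252, 202, 327, 184 and 283 cpm in RBP4 SNF and at 528, 502, 1259, 326 and 161 cpm in RBP4 ST, where replicate 3 was by far the highest. It was at 163, 162, 233, 207 and 239 cpm in VGAT SNF and at 349.6, 292, 266, 291 and 480.0 cpm in VGAT ST. ST was the higher in 4 of 5 RBP4 and 5 of 5 VGAT pools, but the log2 changes of 1.15 (SE 0.45) and 0.74 (SE 0.28) did not pass (edgeR adjusted p = 0.103 and 0.0555). That of the VGAT line passed with the pool as a block (edgeR adjusted p = 0.0104) and without pool 3 (0.0323) or the SNF and ST libraries of replicate 3 (0.0477), and that of the RBP4 line without pool 5 (0.0431).

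Ctgf was lower in ST than in SNF in 5 of 5 pools of both lines. In VGAT ST it was at 22.6, 24.9, 12.1, 16.7 and 11.7 cpm (log2 -0.75, SE 0.26, edgeR adjusted p = 0.0348), which did not pass without pool 4 (edgeR adjusted p = 0.114) or 5 (0.115) or without the SNF and ST libraries of replicate 3 (0.0782). In RBP4 ST it was at 20.9, 20.4, 8.85, 18.6 and 14.8 cpm (log2 -0.74, SE 0.26, edgeR adjusted p = 0.0647), and passed with the pool as a block (edgeR adjusted p = 0.0202). Rorb was lower in ST in 5 of 5 pools of both lines too, with 104, 86.9, 132, 81.8 and 50.9 cpm in RBP4 ST and 111, 88.4, 157, 97.3 and 129 cpm in VGAT ST. Its changes of -0.71 (SE 0.32) and -0.66 (SE 0.32) did not pass, and that of the VGAT line did with the block (edgeR adjusted p = 0.016).

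The other genes did not pass in either line. Foxp2 was at 12.4, 16.9, 7.69, 9.31 and 17.7 cpm in RBP4 ST and at 11.9, 14.2, 10.7, 22.8 and 22.7 cpm in VGAT ST. Syt6 was at 19.6, 16.4, 13.1, 16.9 and 12.9 cpm in RBP4 ST and at 22.0, 25.3, 14.1, 31.7 and 34.4 cpm in VGAT ST, so that its values in the VGAT line were mostly the higher ones. Ntsr1 was at 10.4, 20.9, 4.65, 20.7 and 11.6 cpm in RBP4 ST and at 19.1, 17.9, 6.61, 10.1 and 7.29 cpm in VGAT ST. Tle4 was at 41.4, 32.9, 45.8, 44.8 and 38.8 cpm in RBP4 ST and at 49.5, 52.6, 45.7, 47.2 and 40.2 cpm in VGAT ST. Tbr1 was at 44.5, 49.0, 58.4, 54.2 and 77.8 cpm in RBP4 ST and at 50.8, 65.1, 74.0, 69.6 and 57.0 cpm in VGAT ST. All of their ST ranges overlapped those of SNF. Tested over all 40 libraries, the change from SNF to ST differed between the lines for 0 of the 9 genes and 0 of 17728 genes by edgeR's quasi-likelihood test (0.0%), with 109 and 393 genes at an unadjusted p under 0.05, and with TMM factors or the block for 0 of the 9.

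The differences between the lines that passed in TRAP did not pass in ST. Between RBP4 ST and VGAT ST, 0 of the 9 genes passed, as did 0.325% of all genes tested (10 or 0.0592% higher in RBP4 and 45 or 0.266% in VGAT; 498 and 1439 at an unadjusted p under 0.05), and of the 9, Syt6 was the 1 with an unadjusted p under 0.05. By the likelihood ratio test, by DESeq2 and without RBP4 ST replicate 4, 0 of the 9 passed. With DESeq2 77 genes were higher in RBP4 and 61 in VGAT, and with TMM factors 15 and 36. Log2 differences of the 9 genes ran from -0.69 for Syt6 (SE 0.23, edgeR adjusted p = 0.224) to 0.73 for Cux2 (SE 0.44), and the libraries of both lines overlapped for all 9 genes. Without ST replicate 3 of both lines the value of Cux2 was 0.10. The loss was not particular to the 9 genes. Between the ST libraries 0 of 6 GABAergic, 0 of 5 glutamatergic and 0 of 10 layer 5 genes passed either, and 2 of 8 striatal genes were higher in VGAT.

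Whether the difference between the lines changed from TRAP to ST was tested as an interaction (ST less TRAP, RBP4 less VGAT). It passed for 7 of the 9 genes, 4 with a positive and 3 with a negative value, where 10.8% of all genes tested passed (5.02% positive and 5.79% negative). Values were 3.26 for Syt6 (SE 0.33), 2.08 for Foxp2 (SE 0.32), 0.95 for Cux1 (SE 0.26) and 0.84 for Tle4 (SE 0.21), which had been lower in RBP4 than in VGAT TRAP. They were -2.69 for Rorb (SE 0.52), -2.35 for Tbr1 (SE 0.47) and -1.59 for Ntsr1 (SE 0.50), which had been higher in RBP4 TRAP. TRAP libraries enter both comparisons.

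Of these, Ntsr1 (edgeR adjusted p = 0.0345) did not pass with the pool as a block (edgeR adjusted p = 0.0591) or without RBP4 pool 1, 3 or 5 or VGAT pool 1, 2 or 4. Cux1 did not pass without RBP4 pool 3 or 4 or VGAT pool 1. Cux2 (0.35, SE 0.62) and Ctgf (-0.66, SE 0.41) did not pass, and Ctgf did without the 2 TRAP libraries that stood apart (log2 -1.17, edgeR adjusted p = 0.0355) or without VGAT pool 3. Without those 2 libraries the value of Tbr1 was -3.15, and without ST replicate 3 of both lines that of Cux2 was -0.28.

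**Figure D4:**
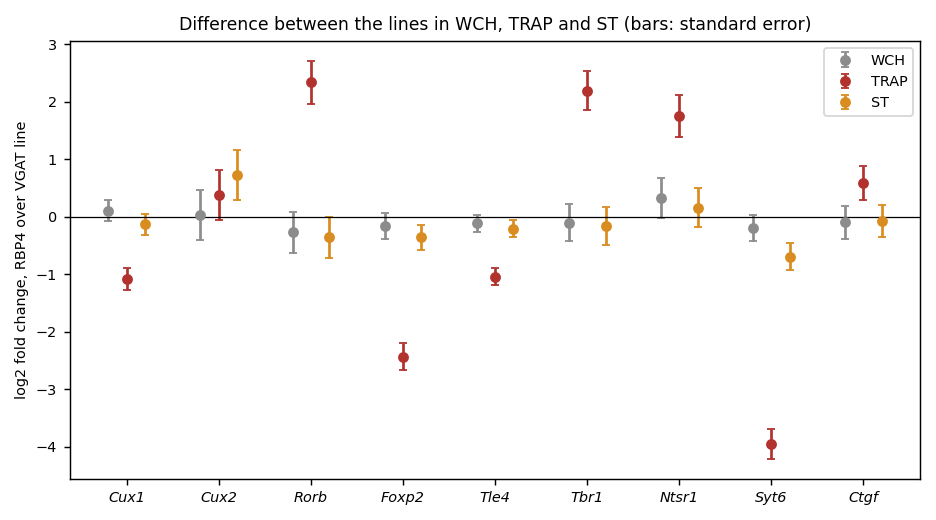
log2 fold change of the RBP4 over the VGAT line with standard error for each layer marker gene, in WCH (grey), TRAP (red) and ST (orange). In TRAP the values range from -3.95 (Syt6) to 2.34 (Rorb), while all values of WCH and ST lie between -0.69 and 0.73.

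Other lists were counted in the same interaction. All 6 GABAergic (median 4.15) and 8 striatal genes (median 2.95) passed with positive values, and all 5 glutamatergic genes with negative ones (median -3.02). Of the 8 other upper layer and layer 4 genes, 3 passed with a negative and 0 with a positive value (median of the 8 0.13). Of the 8 other layer 6 and subplate genes, 2 passed with a positive and 2 with a negative value (median -0.0335), and of the 10 layer 5 genes 2 and 5 (median -0.78). The median of all genes tested was -0.0413. In ST, the oligodendrocyte genes were plentiful in both lines, summing to between 24513 and 42633 cpm, against 341 to 4702 cpm in TRAP. Against SNF, 2 of these 5 genes were higher in ST of each line and 1 was lower in VGAT ST. Their median log2 changes from SNF to ST were -0.16 (RBP4) and -0.57 (VGAT). Those of the astrocyte genes were -0.92 and -0.89, of the microglia genes -0.96 and -0.60, and of the endothelial and mural genes 2.85 and 1.86. What part untagged RNA had in the ST values of the layer marker genes was not tested.

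Ordered by mean level, VGAT TRAP or RBP4 TRAP was the lowest of the 8 groups for each of the 9 genes. RBP4 TRAP was lowest for Cux1, Foxp2, Tle4 and Syt6, and VGAT TRAP for Cux2, Rorb, Tbr1, Ntsr1 and Ctgf. The range of the lowest group lay apart from that of the next in the order for Cux1, Rorb, Tbr1, Ntsr1 and Syt6, and overlapped with it for Cux2, Foxp2, Tle4 and Ctgf. The highest group was VGAT ST for Cux1, RBP4 ST for Cux2, VGAT WCH for Rorb, Tle4 and Tbr1, VGAT TRAP for Foxp2 and Syt6, RBP4 SNF for Ntsr1 and VGAT SNF for Ctgf. Syt6 in VGAT TRAP was the 1 highest group that did not overlap with the next. All other neighbours in the order overlapped, except that Foxp2 in RBP4 WCH lay above VGAT SNF and Ctgf in RBP4 WCH above RBP4 TRAP.

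As a description over the 40 libraries, which share pools and depth, the genes differed in how alike their patterns were. The Pearson correlation of log2(cpm + 1) was 0.85 between Ctgf and Ntsr1, 0.84 between Tle4 and Foxp2, 0.79 between Tbr1 and Rorb and 0.79 between Syt6 and Foxp2, while it was -0.51 between Ntsr1 and Foxp2. Cux1 and Cux2 were at 0.59. Among 14016 genes whose mean over the libraries reached 1 cpm, the most alike were Carhsp1 (0.94) and Rassf8 (0.94) to Cux1, Gm28875 (0.91) and Sept2 (0.90) to Cux2, and Pou3f2 (0.91) and Maml2 (0.90) to Rorb. They were Pde10a (0.91) and Zswim6 (0.90) for Foxp2, Cpeb3 (0.91) and Aff4 (0.91) for Tle4, and Ipcef1 (0.93) and Zbtb18 (0.90) for Tbr1. Lingo1 (0.95) was among those most like Ntsr1, Btbd11 (0.94) and Rbms3 (0.92) were most like Syt6, and Nectin3 (0.96) and Gpr37 (0.96) most like Ctgf.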

How the data were processed

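Libraries of WCH, TRAP, SNF and ST RNA from 5 pools per line were sequenced as single reads with a kit that does not mark strand. The authors aligned reads with STAR 2.0.4b to the mouse genome (its release is not given in the sources used here) and counted unambiguous unique alignments per gene with featureCounts 1.4.5 of the Subread package. The deposited values are counts, CPM (counts scaled by the total of each library) and RPKM (CPM per kb of exon). CPM and RPKM were used only as a check and followed from the counts within 4.07e-10 and 2.91e-10.

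Before testing, 390 mitochondrial, rRNA and tRNA genes were left out. Mitochondrial genes took 0.0584% to 41.9% of a library. Genes with at least 0.5 cpm in 3 libraries of the fit were tested with edgeR 4.0.16 in R 4.3.3 (glmQLFit and glmQLFTest, library sizes as offsets, Benjamini-Hochberg adjusted p of at most 0.05), with 20 libraries of a line within lines and 30 WCH, TRAP and ST libraries between lines. DESeq2 1.42.0, TMM factors, the likelihood ratio test, no filter, no genes left out, the pool as a block and leaving out libraries were alternatives. In direct comparisons of the lines the replicate number took the place of the pool as the block. The fit of all 40 libraries and those without 2 TRAP libraries or without SNF and ST replicate 3 were added after the data had been seen. All 4 fractions of a replicate came from 1 pool according to the study's methods, so equal numbers pair libraries within a line. Their deviations from the group means correlated at 0.205 to 0.474 on average. The averages for other numbers, -0.107 to -0.050, nearly follow from these, because deviations cancel within a group, and add no separate evidence. Pools are separate, but the main fits left out the pairing within pools and estimated the spread over all fractions in the fit. Their p-values therefore do not measure how far the change between fractions varied from pool to pool. Scripts were tested on simulated data.

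The 9 genes and the marker lists were chosen with earlier results of these data known. Named were the 9 genes, the genes of the label check, up to 2 genes per list with the smallest p past the threshold in each TRAP comparison, and the 2 genes most like each of the 9; a few genes that this rule names are not reported here.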

Additional observations from a re-analysis of the deposited data

Results flagged for a closer look

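Cux1 in RBP4 WCH replicate 5 was at 99.9 cpm, far from the other 4 libraries of its group (74.8 to 80.0 cpm). Tbr1 in RBP4 SNF replicate 4 was at 59.8 cpm, against 42.3 to 46.4 cpm in the others. Each gap passed Dixon's 95% critical value of 0.71 for 5 samples, as did 2 of 72 groups tested, where chance gives about 5%.

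The change from WCH to TRAP differed between the RBP4 and the VGAT line for 7 genes, in a test of the difference itself over 40 libraries. On the log2 scale (RBP4 less VGAT) it was -3.76 for Syt6, -2.28 for Foxp2, -1.19 for Cux1, -0.93 for Tle4, 2.61 for Rorb, 2.30 for Tbr1 and 1.43 for Ntsr1. edgeR adjusted p-values of the quasi-likelihood test ran from 1.26e-11 for Syt6 to 0.0315 for Ntsr1.

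The difference between the lines changed from TRAP to ST for the same 7 genes, by the interaction term. The values (ST less TRAP) were 3.26 for Syt6, 2.08 for Foxp2, 0.95 for Cux1, 0.84 for Tle4, -2.69 for Rorb, -2.35 for Tbr1 and -1.59 for Ntsr1, with edgeR adjusted p from 3.94e-08 for Syt6 to 0.0345 for Ntsr1. The TRAP libraries entered both tests, so that they are not independent of each other.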

How the results depend on the processing

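Over 10 comparisons (the added differences between lines are apart), 39 results passed and 32 of them kept direction and call in every alternative run. Of 1413 alternatives of single-gene results 1318 kept both, 40 reversed, 31 came to pass and 24 no longer passed. None of the 40 had passed in the first place. In the differences between lines 7 results passed and kept their calls with TMM factors, with the block and without the libraries left out, and the reversals given for them come on top of the 40. The labels do not say that equal replicate numbers of different lines mark a shared batch (deviations correlated at 0.0917 to 0.309 on average, single pairs from -0.59 to 0.75, and 1 to 3 of 5 libraries best with their own number). The pool as a block, as for the pairing within lines, gave 1452 lower genes in RBP4 ST against SNF in place of 931, 1 layer marker gene lower there, and 2 higher and 2 lower in VGAT ST. It reversed the log2 values of Rorb (0.0787), Foxp2 (-0.0488) and Ctgf (-0.0245) in the difference between lines of SNF against WCH. A pool belongs to 1 line, so in direct comparisons of the lines the block was the replicate number, although no shared batch is known. That block reversed the log2 difference of Cux2 between WCH (-0.053). Neither block changed a call of a layer marker gene other than those given in the report.

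With TMM factors 3296 genes were higher in RBP4 TRAP against WCH, and 3048 (RBP4) and 4747 (VGAT) lower in SNF. The log2 change of Cux1 became 0.0188 in VGAT TRAP, 0.30 in RBP4 SNF and 0.28 in VGAT SNF, that of Cux2 0.19 in RBP4 SNF, of Syt6 0.0452 in VGAT SNF, of Tbr1 -0.0455 in VGAT ST against SNF, and of Ctgf 0.0085 between ST. In the differences between lines Rorb became 0.0342 (SNF) and 0.0855 (ST), and Ntsr1 0.0889 (ST). DESeq2 gave 3536 genes higher in RBP4 TRAP, 3781 higher and 2545 lower in RBP4 SNF, 3929 lower in VGAT SNF, 3017 lower in VGAT ST, 3 higher in WCH and 77 higher in ST between lines, and 1 (RBP4) and 2 (VGAT) layer marker genes lower in ST. With it Cux1 was at 0.39 (RBP4 SNF), 0.38 (VGAT SNF) and 0.0103 (ST between lines), Cux2 at 0.26 and 0.0016 (RBP4 and VGAT SNF), Syt6 at 0.15 (VGAT SNF), Tle4 at -0.0189 and Tbr1 at -0.0891 (VGAT ST), and Ctgf at 0.0373 (ST between lines).

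With no genes left out, 1441 genes were higher in RBP4 SNF, 1757 higher and 317 lower in RBP4 ST, 4726 and 917 in VGAT ST, and 0 higher between WCH. In VGAT SNF 7 layer marker genes were then lower, as were 9134 of all genes. In RBP4 ST 1 layer marker gene was higher, in VGAT ST 2 were higher and 0 lower, and Tle4 was at 0.15 in RBP4 ST. The likelihood ratio test gave 3 genes higher between WCH, 19 higher and 121 lower between ST, 1 layer marker gene lower in RBP4 ST and 2 higher in VGAT ST, the latter also without the filter and without the 2 TRAP libraries. Without RBP4 ST replicate 4, 2 genes were higher between WCH, 33 higher and 162 lower between ST, and Ntsr1 was at -0.0403. Without the SNF and ST libraries of replicate 3 (chosen after seeing the data), 2 genes were higher between WCH and 4 higher and 27 lower between ST, 2 layer marker genes were higher and 0 lower in VGAT ST, Tbr1 was at -0.0869 there and Cux2 at -0.28 in the interaction. The differences between lines became 0.19 (Rorb, SNF), -0.15 (Cux2, ST), 0.0867 (Ntsr1, ST) and -0.0312 (Ctgf, ST). The cause of these shifts was not tested.

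Leaving out 1 pool at a time gave 764 to 1566 genes higher in RBP4 TRAP (fewest without RBP4 pool 2, 3 or 4), 462 to 1158 higher (fewest without RBP4 pool 1, 3 or 4) and 258 to 961 lower in RBP4 ST (fewest without RBP4 pool 1 or 4), 0 to 2 higher and 0 to 1 lower between WCH, 1 to 22 higher and 6 to 138 lower between ST (fewest without VGAT pool 5, most without RBP4 pool 4), and 651 to 1213 with a negative interaction (fewest without VGAT pool 2). Layer marker genes higher were 0 to 1 in RBP4 ST and 1 to 2 in VGAT ST, and lower in VGAT ST 0 to 1. Values that changed sign ran from -0.19 to 0.0818 (Ctgf) and -0.0489 to 0.38 (Ntsr1) between ST, -0.25 to 0.25 (Cux2) between WCH, -0.0783 to 0.0039 (Cux1) and -0.38 to 0.0406 (Cux2) in RBP4 SNF, -0.0199 to 0.0424 (Foxp2) in VGAT TRAP, -0.0226 to 0.0742 (Ntsr1) in RBP4 TRAP, -0.0869 to 0.20 (Tbr1) in VGAT ST, and -0.27 to 0.83 (Cux2) in the interaction. Over 8 group means in place of 40 libraries, 1 of the 9 most alike genes was the same (Gm28875 for Cux2). With 11 counts of Ntsr1 in the lowest library, depth limits its values most.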

Other observations

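Within each line, the WCH libraries with the least Cux2 and Rorb had the most Tbr1. RBP4 WCH replicates 1 and 4 had Cux2 at 89.3 and 114 cpm and Rorb at 92.5 and 104 cpm, the lowest of their group. Their Tbr1 values of 104 and 117 cpm and Fezf2 values of 54.5 and 63.3 cpm were the highest. VGAT WCH replicate 1 likewise had the lowest Cux2 (102 cpm) and Rorb (126 cpm) of its group and the highest Tbr1 (114 cpm), Foxp2 (60.1 cpm), Tle4 (103 cpm) and Fezf2 (57.4 cpm). In SNF, replicate 3 had the lowest Foxp2 of its group in both lines, with 7.04 cpm in the RBP4 and 13.0 cpm in the VGAT line. Mitochondrial genes held 40.2% and 41.9% of the counts of these 2 libraries, and their part in the values was not tested.

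RBP4 ST replicate 3 had the highest Cux2 of all 40 libraries (1259 cpm) and the lowest Ntsr1 (4.65 cpm), Foxp2 (7.69 cpm) and Ctgf (8.85 cpm) of its group. VGAT ST replicate 3 had the lowest Cux2 (266 cpm), opposite to the RBP4 line, and the lowest Ntsr1 (6.61 cpm), Foxp2 (10.7 cpm) and Syt6 (14.1 cpm) of its group. Both had the highest mitochondrial share of their group (15.8% and 18.97%), whose part in these values was not tested.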
